A study of Mus musculus with 12 samples.

Results

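Spib, Siglech, Flt3, Xcr1, Clec9a, Itgae, Batf3, Irf8, Zbtb46 and Cd209a are genes by which dendritic cells and their lineages are recognized. These 10 genes, of 52636 genes counted, were followed in livers of male C57Bl/6J mice at 16 weeks of age. They were listed by name for their known roles in dendritic cells, with earlier results of these data known, and all 10 were found among the gene identifiers of the count files. The mothers of the VDD-F1 mice received a vitamin D deficient diet with added calcium from before mating until delivery, and the mothers of the VDS-F1 mice received a vitamin D sufficient diet. The sires were on a control diet, and from delivery on all mothers and all offspring, in both groups, received the sufficient diet. There were 6 mice per group, 1 RNA-seq library was made from the left lateral liver lobe of each mouse, and the mice are named VDD1 to VDD6 and VDS1 to VDS6. The litters are not given in the labels, so p-values measure the spread between these mice, some of which may be siblings.

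Dendritic cells take up antigen, carry it to lymphoid tissue and present it to T cells. Plasmacytoid dendritic cells release type I interferon on sensing viral nucleic acid, type 1 conventional dendritic cells (cDC1) present antigen from dead cells to CD8 T cells, and type 2 conventional dendritic cells (cDC2) mainly prime CD4 T cells. All arise from Flt3-dependent progenitors in the bone marrow, with Irf8 needed for cDC1, Batf3 for keeping the cDC1 program, and Spib acting in plasmacytoid cells. In the liver they are a small population that lies mostly around the portal tracts.

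The promoters of Spib and Irf8 are shown because, of the members with enough counts for the main test, these had the lowest p-values for the diet difference. The sequences are the 250 bases before the RefSeq transcription start on build GRCm38.p6, 5′ to 3′ on the strand of the gene. The Spib window lies at chr7:44532072-44532321 on the minus strand, and the Irf8 window at chr8:120736108-120736357 on the plus strand. Capitals mark matches to TATANA, the letters of a TATA element, on either strand.
Spib: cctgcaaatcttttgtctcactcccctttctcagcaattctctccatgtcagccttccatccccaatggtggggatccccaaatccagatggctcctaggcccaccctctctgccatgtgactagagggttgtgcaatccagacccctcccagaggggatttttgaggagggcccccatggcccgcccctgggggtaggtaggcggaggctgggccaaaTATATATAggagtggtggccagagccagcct
Irf8: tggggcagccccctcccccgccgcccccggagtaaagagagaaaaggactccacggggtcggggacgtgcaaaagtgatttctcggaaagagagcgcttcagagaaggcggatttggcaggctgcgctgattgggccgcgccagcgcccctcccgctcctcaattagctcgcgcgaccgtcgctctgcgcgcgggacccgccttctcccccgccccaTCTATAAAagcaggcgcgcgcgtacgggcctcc
In Spib the capitals begin 31 bases before the start. In Irf8 the match on the strand of the gene also begins 31 bases before the start, and it overlaps a match on the opposite strand. TATANA was added after the sequences were read, and 23.4% of 27025 promoters hold it within the same 250 bases. Matches farther from the start lay in the windows of Xcr1, Clec9a and Cd209a, and there were none in the other 4. RefSeq promoters were found for 9 of the 10 genes, the exception being Itgae. The Ets-Irf composite element (held by 2.38% of the promoters on either strand) and the Irf element (3.04%) were in none of these 9 windows. GAGGAAG, the core bound by PU.1 and Spi-B (10.4% of promoters), was in that of Batf3, and TGANTCA of an AP-1 element (6.87%) in that of Zbtb46. The RefSeq starts used for Batf3 and Zbtb46 lie inside the GENCODE bounds of these genes, so their windows may not be the main promoters. A match is a run of letters and not a measured binding site.

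The libraries held 25897868 to 36403413 fragments, of which 14275793 to 20815066 were counted on genes in the reverse-strand column. At this depth the members were thinly covered, with mean counts per library from 4 for Batf3 to 137.9 for Irf8. Levels are given as CPM, counts scaled to a common library size, after TMM scaling, and 3 counts correspond to 0.140 to 0.226 CPM, depending on the library. Only Spib, Irf8 and Zbtb46 reached the mean count of 12 at which 12453 genes were tested. Spib reached it through the VDD-F1 mice, whose mean count was 25.7, while that of the VDS-F1 mice was 7.5. The other 7 genes were read from a second fit over 17769 genes with a total count of at least 12. A hepatocyte list of 10 genes summed to 91020 to 112200 CPM in VDD-F1 and 83550 to 100500 CPM in VDS-F1, as the tissue label has it. VDD2 stood apart from the rest in many immune genes, being the highest of the 12 mice in 18.2% of the 17769 genes and in 6 of the 10 members, and main values are also given without it. Liver weight was recorded for 7 of the mice, VDD4, VDD5, VDD6 and VDS3 through VDS6, and not for the other 5, and values are also given within these sets.

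Spib, the gene of an Ets-family transcription factor that acts in plasmacytoid dendritic cells and B cells (chromosome 7, 44525993 to 44532071, minus strand), was higher in VDD-F1 in every mouse. Its counts were 14, 38, 15, 23, 30 and 34 in VDD1 to VDD6 and 7, 8, 5, 8, 11 and 6 in VDS1 to VDS6. The corresponding levels were 0.884, 1.98, 1.13, 1.58, 1.58 and 1.59 CPM in VDD-F1 and 0.346, 0.472, 0.344, 0.416, 0.764 and 0.429 CPM in VDS-F1. The lowest VDD-F1 mouse, VDD1, lay above the highest VDS-F1 mouse, VDS5. The groups did not overlap in Spib alone of the 10 members, while 0.58% of the 17769 genes had every VDD-F1 mouse above every VDS-F1 mouse. Of 1270 genes with a mean count within 1.5-fold of that of Spib, 13 (1.02%) separated the groups in this direction.

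**Figure D1:**
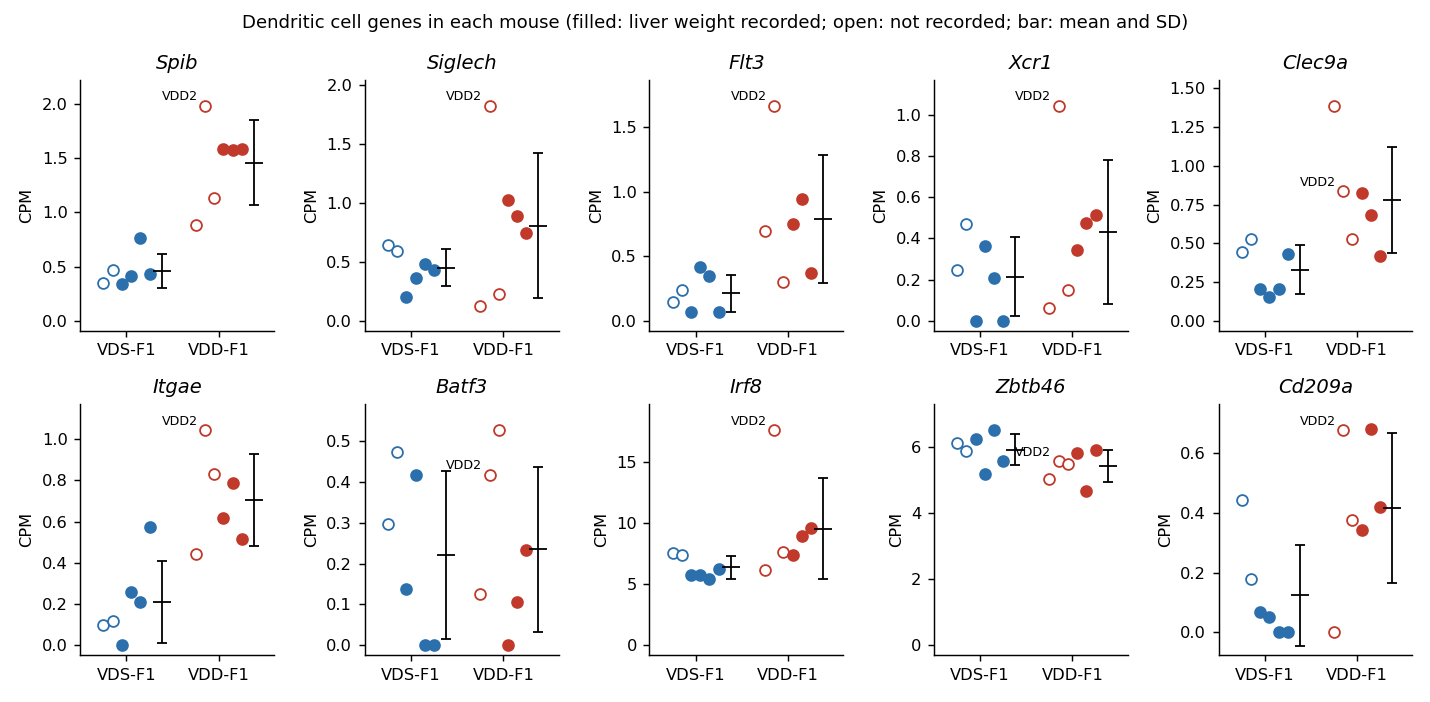
Level of each of the 10 genes in CPM (y axis) in each mouse, VDS-F1 on the left and VDD-F1 on the right of each panel. Filled points are mice with a recorded liver weight, open points mice without one, and bars show the mean and SD of 6 mice. For Spib all 6 VDD-F1 points lie above all VDS-F1 points, and VDD2 is the highest point in 6 panels.

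The mean level of Spib was 1.46 ± 0.390 CPM in VDD-F1 and 0.462 ± 0.156 CPM in VDS-F1 (SD, n = 6 each), a ratio of 3.15. The log2-fold change by edgeR's quasi-likelihood test was 1.66 with a standard error of 0.30. The unadjusted p was 6.71e-05 and the Benjamini-Hochberg adjusted p over all genes was 0.0627, which did not pass 0.05, a threshold passed by 5 genes or 0.0402% of those tested. With DESeq2 on the same counts the adjusted p of Spib was 0.00111, and 4.05% of genes passed. The exact permutation test of the difference in CPM gave p = 0.00216 (two-sided), the smallest that 924 splits of 6 against 6 mice can give. Without VDD2 the VDD-F1 mean was 1.35 CPM and the log2-fold change in the wider fit 1.54, against 1.65 with it. Within the sets the edgeR log2-fold change of Spib was 1.68 in the mice with a recorded liver weight and 1.69 in those without. Within the recorded set the adjusted p was 0.0204 by edgeR, with 7.59% of genes passing, and in the other set the edgeR p was 0.0440 before and 1 after adjustment. The difference between the sets, the interaction of diet and set, was −0.03 on the log2 scale with a standard error of 0.66 (edgeR, adjusted p = 0.9999).

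Siglech, which encodes a surface receptor of plasmacytoid dendritic cells, did not follow Spib in all mice. Its level was 0.126, 1.83, 0.226, 1.03, 0.894 and 0.746 CPM in VDD1 to VDD6. In VDS1 to VDS6 it was 0.642, 0.590, 0.206, 0.364, 0.486 and 0.429 CPM. VDD1 and VDD3 lay at the low end of the 12 mice and the other 4 VDD-F1 mice above all VDS-F1 mice. The log2-fold change of 0.83 ± 0.53 (SE) had an edgeR adjusted p of 0.511, and it was 0.41 without VDD2. In the recorded set alone the log2-fold change was 1.23 with an edgeR p of 0.0309 before and 0.181 after adjustment, and in the other set it was 0.25.

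Flt3, the receptor tyrosine kinase through which Flt3 ligand drives dendritic cell development, was present at 0.694, 1.67, 0.301, 0.755, 0.947 and 0.373 CPM in VDD1 to VDD6. In VDS1 to VDS6 it was 0.148, 0.236, 0.0687, 0.416, 0.347 and 0.0715 CPM. VDD3 and VDD6 fell within the range of VDS-F1, and the other 4 VDD-F1 mice lay above it. The log2-fold change was 1.83 ± 0.55 (SE), with an edgeR p of 0.00441 before and 0.150 after adjustment. DESeq2 gave an adjusted p of 0.0485, and 2.38% of the genes with an adjusted p passed in this direction. The exact permutation p was 0.0108, and 0.0152 without VDD2, where the log2-fold change was 1.46. It was 1.52 in the recorded set and 2.19 in the other, with edgeR p of 0.0521 and 0.0610.

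The 3 surface genes that mark cDC1 differed among themselves. Xcr1, the receptor for the chemokine Xcl1, had 1, 20, 2, 5, 9 and 11 counts in VDD1 to VDD6 and 5, 8, 0, 7, 3 and 0 in VDS1 to VDS6. The groups of Xcr1 overlapped widely, with a log2-fold change of 0.96 ± 0.76 (SE), 0.49 without VDD2, and an edgeR adjusted p of 0.612. The forward-strand column of Xcr1, which reads the opposite strand, held up to 9 counts. It held more than the gene's own column in VDD1 (9 beside 1), VDS3 (1 beside 0) and VDS5 (7 beside 3). With counts that ignore the strand the log2-fold change of Xcr1 was 0.46, and within the sets it was 1.49 in the recorded and 0.25 in the other mice.

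Clec9a encodes a receptor that recognizes dead cells. It was measured at 1.39, 0.835, 0.527, 0.824, 0.684 and 0.420 CPM in VDD1 to VDD6 and 0.444, 0.531, 0.206, 0.156, 0.208 and 0.429 CPM in VDS1 to VDS6. VDD1 was the highest mouse and VDD3 and VDD6 lay within the range of VDS-F1. Its log2-fold change was 1.21 ± 0.44 (SE, 1.19 without VDD2), with an edgeR p of 0.0141 before and 0.229 after adjustment and an exact permutation p of 0.0152. Exons of Clec9a overlap those of Clec1b on the same strand, so the share of reads that was assigned to Clec9a is uncertain. Its forward-strand column held 0 to 15 counts, more than the gene's own column in VDD6 and in VDS1 to VDS5. With counts that ignore the strand the log2-fold change was 0.58 and the exact permutation p 0.0823.

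Itgae, the integrin subunit CD103 of tissue cDC1 and also of some T cells, had levels of 0.442, 1.04, 0.829, 0.618, 0.789 and 0.513 CPM in VDD1 to VDD6. It lay at 0.0987, 0.118, 0, 0.260, 0.208 and 0.572 CPM in VDS1 to VDS6. VDS6 alone of the VDS-F1 mice reached into the range of VDD-F1. The log2-fold change of 1.74 ± 0.58 (SE) had an edgeR p of 0.00874 before and 0.188 after adjustment. The exact permutation p was 0.00649, and without VDD2 the log2-fold change was 1.59. It was 1.27 in the recorded set and 2.75 in the other, with edgeR p of 0.116 and 0.0224 before and 0.372 and 1 after adjustment.

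Among the transcription factors, Irf8, which is needed for cDC1 and is also expressed in plasmacytoid cells, B cells and monocytes, was the best covered. Its levels were 6.12, 17.6, 7.61, 7.35, 8.94 and 9.56 CPM in VDD1 to VDD6 and 7.55, 7.38, 5.77, 5.77, 5.42 and 6.22 CPM in VDS1 to VDS6. VDD2 was far above the next mouse, VDD1 and VDD4 were in the range of VDS-F1 and the other VDD-F1 mice lay above it. The mean was 9.53 ± 4.13 CPM in VDD-F1 and 6.35 ± 0.900 CPM in VDS-F1. The log2-fold change was 0.59 ± 0.22 (SE), with an edgeR p of 0.0194 before and 0.225 after adjustment. The exact permutation p was 0.0260 with all mice and 0.0541 without VDD2, and the log2-fold change in the wider fit was 0.58 and 0.31, respectively. In the recorded set, which does not hold VDD2, it was 0.56 with an edgeR adjusted p of 0.0492, and in the other set 0.48 with an edgeR p of 0.294 before and 1 after adjustment.

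Batf3, a factor of the cDC1 program, had between 0 and 8 counts in any library and showed no direction. Its level was 0.235 ± 0.201 CPM in VDD-F1 and 0.220 ± 0.206 CPM in VDS-F1, and its log2-fold change of 0.03 ± 0.88 (SE) changed sign to −0.22 without VDD2. Zbtb46, a factor of conventional dendritic cells that endothelial cells also express, lay at 5.05, 5.59, 5.498, 5.84, 4.68 and 5.92 CPM in VDD1 to VDD6. In VDS1 to VDS6 it lay at 6.12, 5.90, 6.25, 5.20, 6.53 and 5.58 CPM. Zbtb46 was the only member with a negative log2-fold change, −0.13 ± 0.12 (SE, edgeR adjusted p = 0.636), and no VDD-F1 mouse lay above all VDS-F1 mice. An endothelial list of 10 genes, beside it, summed to 314.8 ± 24.9 CPM in VDD-F1 and 340.6 ± 41.2 CPM in VDS-F1, and the part of endothelial RNA in the Zbtb46 level was not tested.

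Cd209a, a lectin receptor of cDC2 and of monocyte-derived dendritic cells with close paralogs in the genome, had 0, 13, 5, 5, 13 and 9 counts in VDD1 to VDD6 and 9, 3, 1, 1, 0 and 0 in VDS1 to VDS6. VDD1 and VDS1 went against the rest of their groups. The log2-fold change was 1.62 ± 0.85 (SE) with an edgeR adjusted p of 0.401 and an exact permutation p of 0.0541. Without VDD2 it was 1.43, with an edgeR p of 0.135 before adjustment and an exact permutation p of 0.0952. Leaving out a mouse that went against its group lowered the exact permutation p. It was 0.0216 without VDS1 (log2-fold change 2.62) and 0.0108 without VDD1. With any other mouse left out the exact permutation p was 0.0606 to 0.0952. The log2-fold change was 3.64 in the recorded set (edgeR adjusted p = 0.0408) and 0.17 in the other, and the diet by set interaction of 3.46 ± 1.58 (SE) had an edgeR p of 0.0461 before and 0.626 after adjustment.

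**Figure D2:**
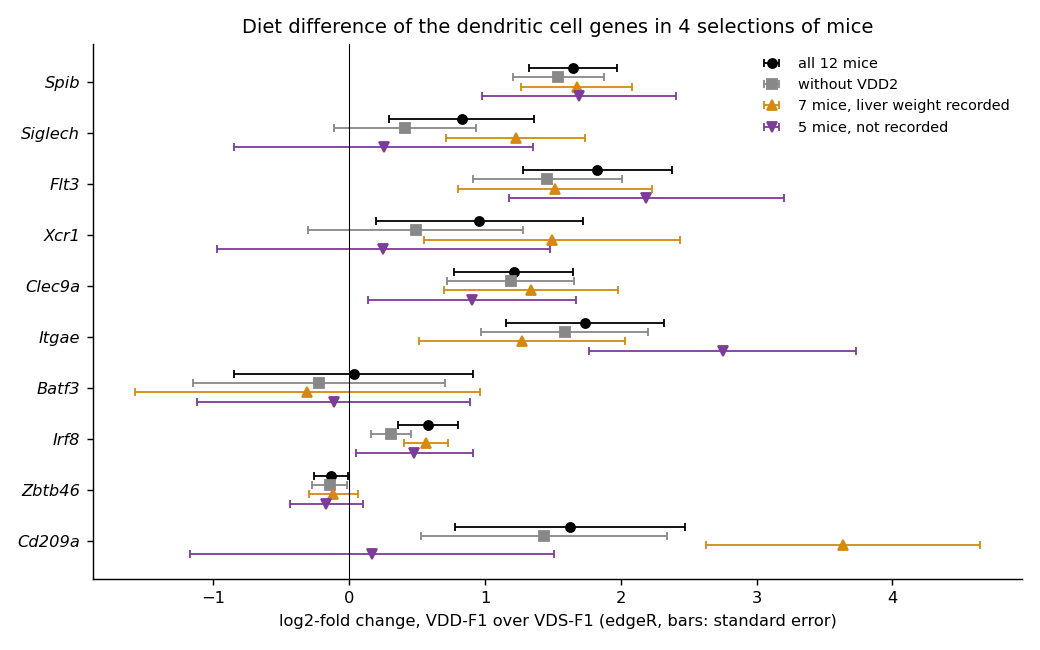
Log2-fold change of each gene, VDD-F1 over VDS-F1 (x axis, points with standard errors), from the edgeR fits with the total count filter in 4 selections of mice. Spib lies between 1.54 and 1.69 in all 4, while Siglech, Xcr1, Itgae and Cd209a shift with the mice chosen and Zbtb46 stays just below 0.

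Counted together, 9 of the 10 members had a log2-fold change above 0, where 51.8% of the 17769 genes did, and the median was 1.09 (0.84 without VDD2) beside 0.01 over all genes. At an unadjusted edgeR p under 0.05, 5 were higher in VDD-F1 (Spib, Flt3, Clec9a, Itgae and Irf8) and none lower, where 8.94% of genes were higher and 5.5% lower. Without VDD2, the 4 other than Irf8 were still under 0.05, with Irf8 at an edgeR p of 0.0539, and the background was 6.51%. By the exact permutation test the same 5 genes had p under 0.05, where 7.59% of genes did in this direction. After adjustment none of the 10 passed in edgeR, where 0.0394% of genes did, and 2 passed in DESeq2 (Spib and Flt3), where 2.38% of genes did in this direction. These counts describe a list chosen with results known, whose members share cells and mice, and are not independent evidence. In bulk liver, more cells of a type and more RNA per cell cannot be told apart.

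The order of the levels was read per exon length, as CPM per kilobase of exon (RPKM). In VDS-F1, Irf8 at 0.900 ± 0.128 RPKM and Zbtb46 at 0.697 ± 0.0564 RPKM stood first, and Spib followed at 0.161 ± 0.0545 RPKM. In VDD-F1, Irf8 was at 1.35 ± 0.586, Zbtb46 at 0.638 ± 0.0562 and Spib at 0.508 ± 0.136 RPKM. In that group the intervals of mean and SD of Zbtb46 and Spib overlapped, while in VDS-F1 they did not, and Spib overlapped its next lower neighbour in both groups. The other 7 genes had VDD-F1 means of 0.0968 (Xcr1) to 0.263 RPKM (Cd209a) and VDS-F1 means of 0.0348 (Flt3) to 0.138 RPKM (Batf3). Neighbours in that lower range did not differ beyond their spread in either group.

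**Figure D3:**
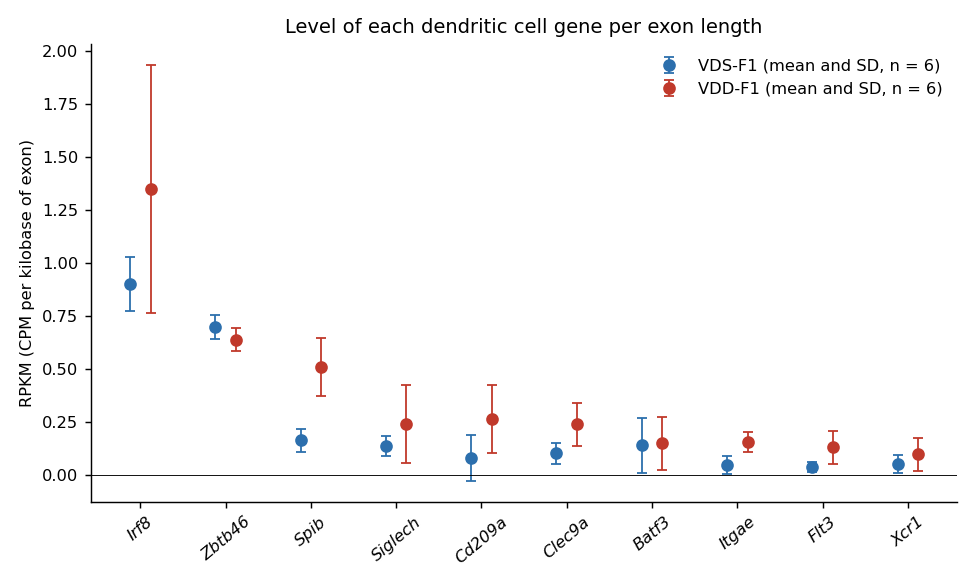
Level of each gene per kilobase of exon (RPKM, y axis; mean and SD, n = 6 mice), ordered by the mean of both groups, with VDS-F1 in blue and VDD-F1 in red. Irf8 and Zbtb46 lead, and Spib at 0.161 RPKM in VDS-F1 and 0.508 RPKM in VDD-F1 has groups whose bars do not overlap.

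Across the 12 mice the 45 pairs of members had a median Pearson r of 0.43 in log2 CPM, with 34 pairs above 0, and 0.32 without VDD2, with 32 pairs above 0. With all mice the highest were Spib with Flt3 (r = 0.82) and Spib with Itgae (0.81), and the lowest was Itgae with Zbtb46 (−0.57). Without VDD2 the highest was Irf8 with Cd209a (0.891), followed by Spib with Flt3 (0.772) and Spib with Itgae (0.765). All pairs come from the same libraries, and the diet groups enter each r. The genes outside the members whose log2 CPM was most like that of Spib over the 12 mice were Gm11695 (r = 0.95), Tceal9 (0.95), Gnb1 (0.93), Abi3bp (0.92) and Mbl2 (0.92). Within the diet groups these r were 0.74, 0.67, 0.79, 0.77 and 0.69. Those most like Irf8 were Csrp1 (0.97), Flna (0.95), Tspan15 (0.95), Slfn2 (0.95) and Itpripl2 (0.95), and within groups they lay between 0.92 and 0.95. Of the 10, Tceal9 passed adjustment in edgeR, at 9.16 ± 2.03 CPM in VDD-F1 and 4.26 ± 0.455 CPM in VDS-F1 (log2-fold change 1.11, adjusted p = 0.0269).

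Other genes of the same cells were taken from lists for each lineage. With all mice no gene of these lists passed adjustment in edgeR. In the recorded set, where 7.59% of all genes passed in either direction, 11 of the 78 tested genes of the dendritic cell and class II lists did (14.1%). Of these, 8 were higher (Ly6d, Itgax, Tlr3, Cadm1, Sirpa, Cd83, Runx3 and H2-DMb2) and 3 lower (Irf7, Kit and Csf1r), with edgeR adjusted p from 0.000172 for Ly6d to 0.0460 for Cd83. Tlr3, Cd83 and Irf7 are named after their values were seen. Irf7, the interferon regulatory factor of plasmacytoid cells, had a log2-fold change of −0.49 there (adjusted p = 0.0236). Markers of other cells also passed in that set, 50% of those of stellate cells and fibroblasts and 42.9% of those of macrophages (all 6 lower). The share was 40% for hepatocytes, 37.5% for cholangiocytes, 20% for monocytes and neutrophils and 10% for endothelial cells. It was 0 for the B cell list and 0 for the T cell list. The counts below are at an unadjusted edgeR p under 0.05, which 8.94% of all genes passed as higher in VDD-F1 and 5.5% as lower, and 6.51% as higher without VDD2. Of 15 further plasmacytoid genes, 13 could be tested and 6 were higher in VDD-F1 at an unadjusted edgeR p under 0.05, with none lower and a median log2-fold change of 0.85. Without VDD2 there were 2, Ly6d and Runx2, and the median was 0.31, and VDD2 was the highest mouse in 12 of the 13, the exception being Smim5, and in 18.2% of all genes. Ly6d, also a marker of B cell progenitors, had the lowest p of the list, with 4.48, 32.5, 1.51, 9.61, 6.00 and 3.40 CPM in VDD1 to VDD6 and 0.347 to 1.65 CPM in VDS-F1. The lowest VDD-F1 mouse, VDD3, overlapped the highest VDS-F1 mice. Its log2-fold change was 3.18 ± 0.64 (SE, edgeR adjusted p = 0.0728; DESeq2 adjusted p = 0.00121), and 2.24 without VDD2. Runx2, a factor of plasmacytoid cells leaving the marrow, and Tlr9, their receptor for DNA, had log2-fold changes of 1.39 and 1.501 with edgeR adjusted p of 0.226 and 0.227, and without VDD2 1.09 and 0.74.

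Of 12 further cDC1 genes, 11 were tested and 4 were higher at an unadjusted edgeR p under 0.05, 3 of them without VDD2, with a median log2-fold change of 0.33 (0.23 without VDD2). Itgax, the integrin subunit CD11c of most dendritic cells, was at 4.86 ± 4.12 CPM in VDD-F1 and 0.976 ± 0.594 CPM in VDS-F1 (log2-fold change 2.33, edgeR adjusted p = 0.0930, DESeq2 adjusted p = 0.00241, and 1.79 without VDD2). Cadm1, an adhesion molecule that many other liver cells also carry, was at 39.6 ± 7.06 and 31.4 ± 4.48 CPM. Of 12 further cDC2 genes, 10 were tested with a median log2-fold change of 0.78 (0.51 without VDD2), and 2 were higher (1 without VDD2, near the share of all genes), Klf4 (2.80 ± 0.842 and 1.51 ± 0.554 CPM) and Sirpa (32.3 ± 20.4 and 20.6 ± 4.69 CPM), which macrophages express as well. Sirpa had a log2-fold change of 0.65 with all mice and 0.24 without VDD2.

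Of 14 genes of mature and migratory dendritic cells all were tested, with a median log2-fold change of 0.56 (0.30 without VDD2), and 2 were higher at an unadjusted edgeR p under 0.05 (1 without VDD2), near the share of all genes. Fscn1, the actin bundler of migrating dendritic cells, was at 10.9 ± 2.28 CPM in VDD-F1 and 7.44 ± 1.58 CPM in VDS-F1, and Relb, a factor of the NF-kB family, at 2.77 ± 1.70 and 1.39 ± 0.607 CPM. Of 22 ligands, receptors and factors of dendritic cell development, 21 were tested, with Runx3 higher (log2-fold change 1.33; none higher without VDD2) and Kit, the stem cell factor receptor, lower (−0.43) at an unadjusted edgeR p under 0.05 and a median log2-fold change of 0.26 (0.05 without VDD2), so that both counts were below the share of all genes. All 10 MHC class II genes were tested, with a median log2-fold change of 0.66 (0.15 without VDD2), and 3 were higher (1 without VDD2): H2-DMb2, H2-Oa and Ciita, the activator of the class II genes. VDD2 was the highest mouse in all 10, and the list summed to 245.2 ± 179.4 CPM in VDD-F1 (174.1 CPM without VDD2) and 160.4 ± 33.3 CPM in VDS-F1.

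Many members are shared with other immune cells, and the markers of these cells were measured beside them. B and plasma cells, which also express Spib and Irf8, had 2 of 17 tested markers higher at an unadjusted edgeR p under 0.05, a share near the 8.94% of all genes, and none lower. Without VDD2 the count was 0, and the median log2-fold change was 0.74 with VDD2 and 0.19 without. In the recorded set, which does not hold VDD2, 5 were higher at that threshold, with a median of 0.55. There 3170 of 12453 genes passed it in either direction at the mean count of 12. After adjustment none of the 17 passed in that set, beside 7.59% of all genes. The B and plasma cell list summed to 11.6 to 40.9 CPM in VDD-F1 and 8.39 to 54.3 CPM in VDS-F1. The highest sum was in VDS2, where Ighm alone was at 38.9 CPM. Monocyte and neutrophil markers, with 10 of 12 tested, had 3 higher (Ccr2, Cx3cr1 and Ly6c2; 2 markers without VDD2) and none lower. Their median log2-fold change, 1.42 (1.09 without VDD2), was above that of the members, and they summed to 4.61 to 38 CPM in VDD-F1 and 2.54 to 8.02 CPM in VDS-F1. T, NK and innate lymphoid markers, all 12 tested, had 3 higher, Cd8a (also carried by some cDC1) and Klrb1c among them (2 without VDD2), and Cd4 lower. Their median log2-fold change was 1.27 (0.87 without VDD2), also above that of the members, and they summed to 2.11 to 12.9 CPM and 2.81 to 5.76 CPM. Kupffer cell and macrophage markers, 14 tested, had none higher and Timd4, Clec4f and Cd163 lower, and summed to 377.7 to 887.0 CPM and 442.9 to 766.0 CPM.

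Outside the immune cells, 4 of 8 stellate cell and fibroblast markers and 4 of 8 cholangiocyte markers were higher in VDD-F1 at an unadjusted edgeR p under 0.05, and none lower, beside 8.94% of all genes higher. Without VDD2 these counts were 2 and 1, beside 6.51% of all genes. Their sums were 314.5 to 924.2 CPM and 28.7 to 148.2 CPM in VDD-F1, and 296.6 to 467.5 CPM and 30.7 to 62.6 CPM in VDS-F1. Of the 10 endothelial markers 1 was higher and 2 lower, and of the 10 hepatocyte markers 3 were lower, Cyp2e1 among them, and none higher. No defining marker of these other cells was at 0 in all mice except S100a4. Their part in the levels of Spib and the other members was not tested.

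**Figure D4:**
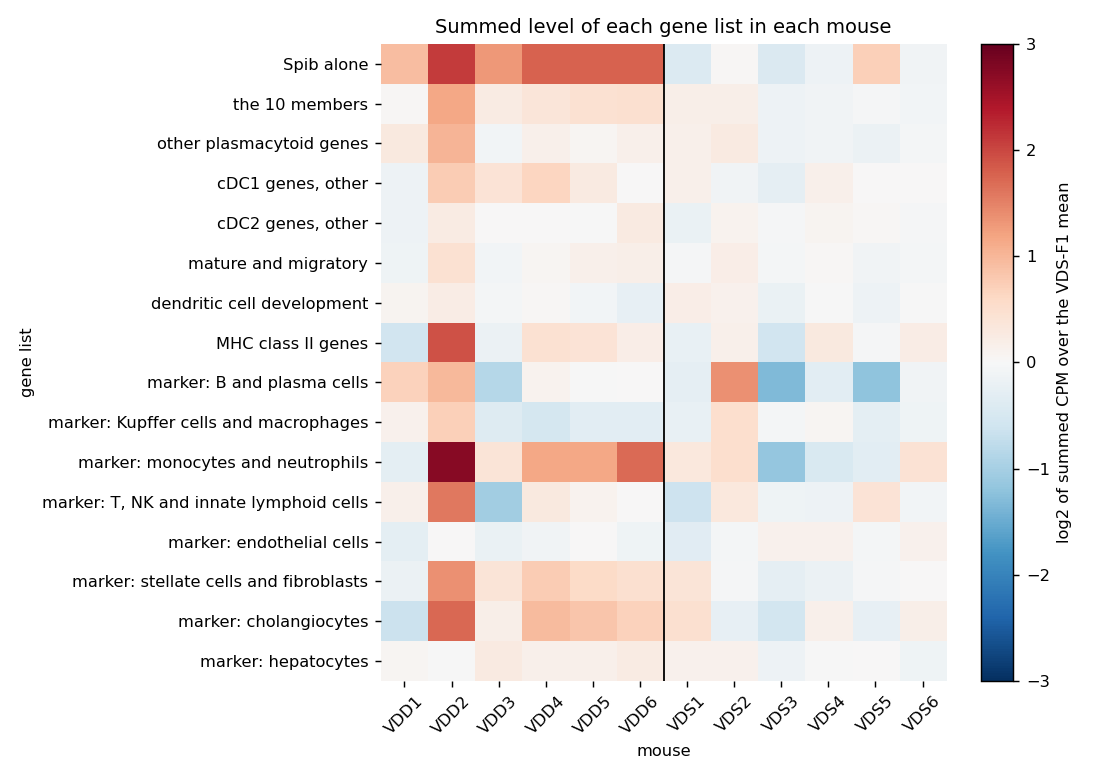
Summed CPM of each gene list in each mouse (columns), as the log2 ratio to the VDS-F1 mean (colour), with Spib alone in the top row. Spib is above the VDS-F1 mean by 0.94 to 2.10 in all VDD-F1 mice, while in most other rows the strongest colour is in VDD2.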

How the data were processed

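Total RNA of the left lateral liver lobe was extracted with AllPrep kits and libraries were made with KAPA RNA HyperPrep with RiboErase. Per the labels and the study's methods, the authors aligned the reads with STAR (version not given in the sources used here) to mm10 (GRCm38, GENCODE M15) and deposited raw counts per gene in 3 columns (unstranded, forward and reverse). Rows that name no gene held 37.4% to 50.3% of the fragments of a library and were left out. The reverse column, 92.7% to 95.8% of stranded counts, was used. VDS6 had the lowest of these shares, and 11.1% of its fragments lay outside genes, beside 2.52% to 4.94% in the other libraries. It also had the most members at 0 counts, 3. Symbols were taken from GENCODE M21 (52489 of 52636 identifiers matched), and levels per length use the union of exons.

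The main test was edgeR 4.0.16 (quasi-likelihood, TMM, Benjamini-Hochberg) on R 4.3.3 on genes whose mean count reached 12, and genes under it were read from a fit to those with a total count of 12 or more. The standard error is the log2-fold change divided by the root of F. An exact permutation test (NumPy 2.4.6, two-sided) was run on CPM of each member, and SciPy 1.17.1 gave a reference value for it on simulated data. DESeq2 1.42.0, limma 3.58.1 (voom), other scalings, filters, count columns and sets of mice, a replicate block, and leaving out each mouse were alternatives. The scripts were tested on simulated data. A DEG had an adjusted p under 0.05 and an absolute log2-fold change over 1. Depth limits the low members, and floors of 3 counts cover counting error only.

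Named genes were all members, the 3 tested genes of each list with the lowest p, the 2 marker genes of highest CPM, and the 5 genes most like Spib and Irf8. Members and lists were chosen with earlier results of these data known. The sets by recorded liver weight come from the study's supplement. Proteins were not analysed here.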

Additional observations from a re-analysis of the deposited data

Results flagged for a closer look

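In VDS-F1, VDS5 was far above the other 5 mice in Spib, at 0.764 CPM beside 0.344 to 0.472 CPM. In VDD-F1, VDD2 was far above the other 5 mice in Irf8, at 17.6 CPM, and in the summed level of the 10 members, at 32.7 CPM. VDD2 also stood far above its group in the summed plasmacytoid genes beside the members (277.0 CPM), the MHC class II genes (600.7 CPM) and the T, NK and innate lymphoid markers (12.9 CPM). In VDS-F1, VDS2 stood far above its group in the summed B and plasma cell markers, at 54.3 CPM. The gap to the nearest mouse was above the 95% critical value of Dixon's test for 6 samples (0.625) in each of these, a value that chance passes in about 1 in 20 groups. Those of VDD2 are not independent of each other, since they come from 1 library. Both diet groups were examined for each level and sum, so more groups were examined than are named here. Some groups would pass by chance.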

How the results depend on the processing

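The number of DEGs over all genes, 5 with edgeR, was 253 with DESeq2, 252 with limma voom, 2 with the robust edgeR fit, 21 with the set of mice as a covariate, 536 in the mice with a recorded liver weight, 0 in those without (472 genes at an unadjusted edgeR p under 0.05), 70 with no filter, 294 with DESeq2 at the total count filter, and 0 to 260 with 1 mouse left out. Of the 3 members tested at the mean count of 12, edgeR called 0 at an adjusted p under 0.05, whatever the fold change (2 at an unadjusted p under 0.05). The count was 1 with DESeq2, voom or the set as a covariate (Spib each time), 2 in the recorded set (Spib, and Irf8 at a log2-fold change of 0.58), 0 to 1 with 1 mouse left out, and 2 of 10 with DESeq2 at the total count filter. At an adjusted p alone, 4.05% of all genes passed with DESeq2 and 7.59% in the recorded set (total count filter). Spib was called without VDD1 (edgeR adjusted p = 0.0101) and without VDD3 (0.0337). Over 24 alternatives its log2-fold change was 1.55 to 1.85 with adjusted p of 0.00106 to 0.999. Batf3 turned to −0.033 with voom, −0.21 with the set as a covariate, −0.31 in the recorded and −0.11 in the other set, and lay between −0.33 and 0.37 with 1 mouse left out. Its difference in CPM ranged from −0.0439 to 0.0649 with 1 mouse left out and was below 0 when VDD2, VDD3, VDS3, VDS5 or VDS6 was left out. The exact permutation p of Irf8 was above 0.05 without VDD2, VDS3, VDS4, VDS5 or VDS6 (0.0541 to 0.0866). That of Cd209a, 0.0541, was under 0.05 with raw library sizes (0.0476), without VDD1 (0.0108) and without VDS1 (0.0216), that of Zbtb46 without VDS4 (0.0390), and that of Clec9a was above it with counts that ignore the strand (0.0823). The cause was not tested. With the replicate block there were 17 DEGs and 0 members called. The numbers in the titles are shared labels only, since same-numbered mice deviated from their groups with r of −0.08 to 0.10 and none correlated best with its own number. Of all log2-fold changes of members under alternatives, 207 kept their direction and side of the threshold, 10 passed it and 9 turned. Counts of 8 or fewer limit Batf3, and the low counts of Xcr1 and Cd209a leave standard errors of 0.76 and 0.85.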

Other observations

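Genes that these lists hold outside the dendritic lineages also had wide differences with VDD2 in and out. Col3a1, a fibrillar collagen of fibroblasts, was at 114.1 ± 72.4 CPM in VDD-F1 and 33.2 ± 14.4 CPM in VDS-F1 (log2-fold change 1.78, edgeR adjusted p = 0.0850, DESeq2 adjusted p = 0.00854), and 1.41 without VDD2. Cx3cr1, a chemokine receptor of monocytes and of some dendritic cells, had a log2-fold change of 2.52 (edgeR adjusted p = 0.119, DESeq2 adjusted p = 0.0403), and 1.85 without VDD2. Cd4, the coreceptor of helper T cells, lay at 1.18 ± 0.228 CPM in VDD-F1 and 2.23 ± 0.756 CPM in VDS-F1 (log2-fold change −0.92, edgeR adjusted p = 0.141, DESeq2 adjusted p = 0.0419). Cd163, a scavenger receptor of macrophages, was at 21.3, 1.98, 12.7, 0.893, 2.84 and 1.63 CPM in VDD1 to VDD6 and 10.8 to 21.7 CPM in VDS-F1. VDD1 and VDD3, the VDD-F1 mice with the lowest Siglech, were within the VDS-F1 range of Cd163, and the other 4 VDD-F1 mice lay below it.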
